A study of Rattus norvegicus with 13 samples.

Results

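The genes described here encode the proteins of the cytosolic ribosome, measured in the ventral midbrain (the substantia nigra with the ventral tegmental area, SN/VTA) of rats that had received methamphetamine (METH), saline or both. They were taken by symbol: each gene whose symbol begins with Rpl or Rps and a digit, without the S6 kinases (Rps6k), and with 1 probe per gene, the one with the fewest values at the lower limit of the deposited table. The rule found 63 genes on 64 probes, of 13337 named genes and 22523 probes on the array. Of these, 40 are named for the large subunit and 22 for the small subunit. The remaining gene, Rps19bp1, encodes a protein that binds Rps19 and is not a ribosomal protein, so it is left out of the counts below. The rats were male Sprague-Dawley animals of 8 weeks. The MM group received METH for 3 weeks at 0.5 to 2.5 mg/kg per injection and then a METH challenge of 8 injections of 5 mg/kg at 1 h intervals, and the MS group had the same METH pretreatment followed by saline injections. The SM group had saline for 3 weeks and then the METH challenge, and the SS group had saline at both stages. In all groups 72 h separated pretreatment and challenge, and the rats were killed 24 h after the challenge. There were 3 MM, 4 MS, 3 SM and 3 SS arrays, of Illumina RatRef-12 type, with 1 colour. The labels do not say that each array held the RNA of 1 separate rat, so p-values measure the spread between these arrays.

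Signals are given in units recovered from the deposited ratios and scaled to a common array median. On that scale Th, the rate-limiting enzyme of dopamine synthesis, lay between 215 and 2727 units over the 13 arrays, and Slc6a3, the dopamine transporter, between 0 and 2147 units, with 1 array at the limit. Ddc, the next enzyme after Th, was at the limit on all 13 arrays. The labels speak of a striatal sample at the step of RNA amplification, while the tissue given for every array is SN/VTA. In tissue of many cell types, fewer cells of a type and less RNA per cell cannot be told apart.

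A ribosome is built from a large subunit, which joins amino acids, and a small subunit, which reads the mRNA, and nearly every ribosomal protein is present in a single copy. Most ribosomal protein mRNAs begin with a C and a run of pyrimidines, the terminal oligopyrimidine (TOP) motif, through which mTOR signalling controls their translation together. A change of that kind alters how much the mRNAs are used and need not alter their amount, which is what an expression array measures.

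The start sites are shown because this run of bases, which the choice of genes did not use, is more frequent among these genes than among all genes, though most lacked it at the annotated base. RefSeq promoter entries (assembly GRCr8) were matched for 50 of the 62 genes. Each line gives 10 bases before the annotated start and the first 15 bases of the transcript, read on the strand of the gene, and the capitals mark a C at the annotated start with the unbroken run of C and T that follows it, where that run has at least 4 bases. Rpl10, Rpl17, Rpl22 and Rpl39 encode large-subunit proteins and Rps7 and Rps27 small-subunit proteins, and the last 2 lines show genes without such a run at that base.
Rpl10, chrX:157205840-157205864, plus strand: gtgggagcgtCTCTTTTCCTCTggc
Rpl17, chr18:70856266-70856290, plus strand: ttcgcgcttcCTCTTCCTgttagcg
Rpl22, chr5:168117951-168117975, plus strand: gcgcccccctCCCTTTCTgcctcct
Rpl39, chrX:121195882-121195906, minus strand: taatcgcgttCTTCCggcctgtcct
Rps7, chr6:50999431-50999455, minus strand: agagctgtgtCTCTTTCTaagccgg
Rps27, chr2:177964592-177964616, minus strand: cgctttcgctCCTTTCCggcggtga
Rpl6, chr12:41011676-41011700, minus strand: ttacatcactagatggcgggtgaaa
Rpl36a, chrX:102059439-102059463, plus strand: tataaacttccgttgctgctctagc

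A C followed by at least 4 bases that are each C or T stood exactly at the annotated start of 19 of the 50 genes (38%), against 881 of all 33469 RefSeq promoter entries (2.63%). The 19 were 12 of 32 large-subunit genes and 7 of 18 small-subunit genes. When the run could begin up to 10 bases to either side of the start, on the strand of the gene, it was found in 35 of the 50 genes (70%), against 23.7% of all entries. These are matches of letters at annotated starts and not measured start sites. The genes themselves are scattered over the genome. The 61 genes with a position on GRCr8 lay on 19 chromosomes with at most 7 on any of them (chromosome 10), and Rpl10, Rpl36a, Rpl39 and Rps4x are on the X chromosome.

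The ribosomal protein mRNAs gave bright and even signals. Of the 62 genes, 50 averaged over 1000 units, 7 averaged between 32 and 1000 units and 5 averaged under 32 units. Within groups the median SD was 0.12 on the log2 scale over the 50 genes above 1000 units, against 0.12 over all 2424 tested probes that bright. Of the 47 genes over 1000 units on every array, 45 had a highest array less than 1.5 times their lowest, and the median of that ratio was 1.32. Rpl6 and Rpl35a were the exceptions. Rpl35a, of the large subunit, ran between 4459 and 7728 units over the 13 arrays.

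Few members gave little or no signal. Rpl11, which with Rpl5 and the 5S RNA forms a particle that can bind Mdm2, and Rpl34 were listed at the limit on all 13 arrays and were not tested. Both belong to the ribosome of every cell, and a probe that does not report cannot be told apart from a low level here. Rpl12 had between 0 and 12.1 units with 3 arrays at the limit, Rpl36a between 0 and 9.04 units with 2 arrays at the limit, and Rps19, the gene most often mutated in Diamond-Blackfan anaemia in humans, between 11.1 and 23.4 units. Rps19 and 58 other genes, Rps19bp1 included, were above the limit on every array. The tests below covered 60 genes, 38 of the large and 22 of the small subunit.

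**Figure D1:**
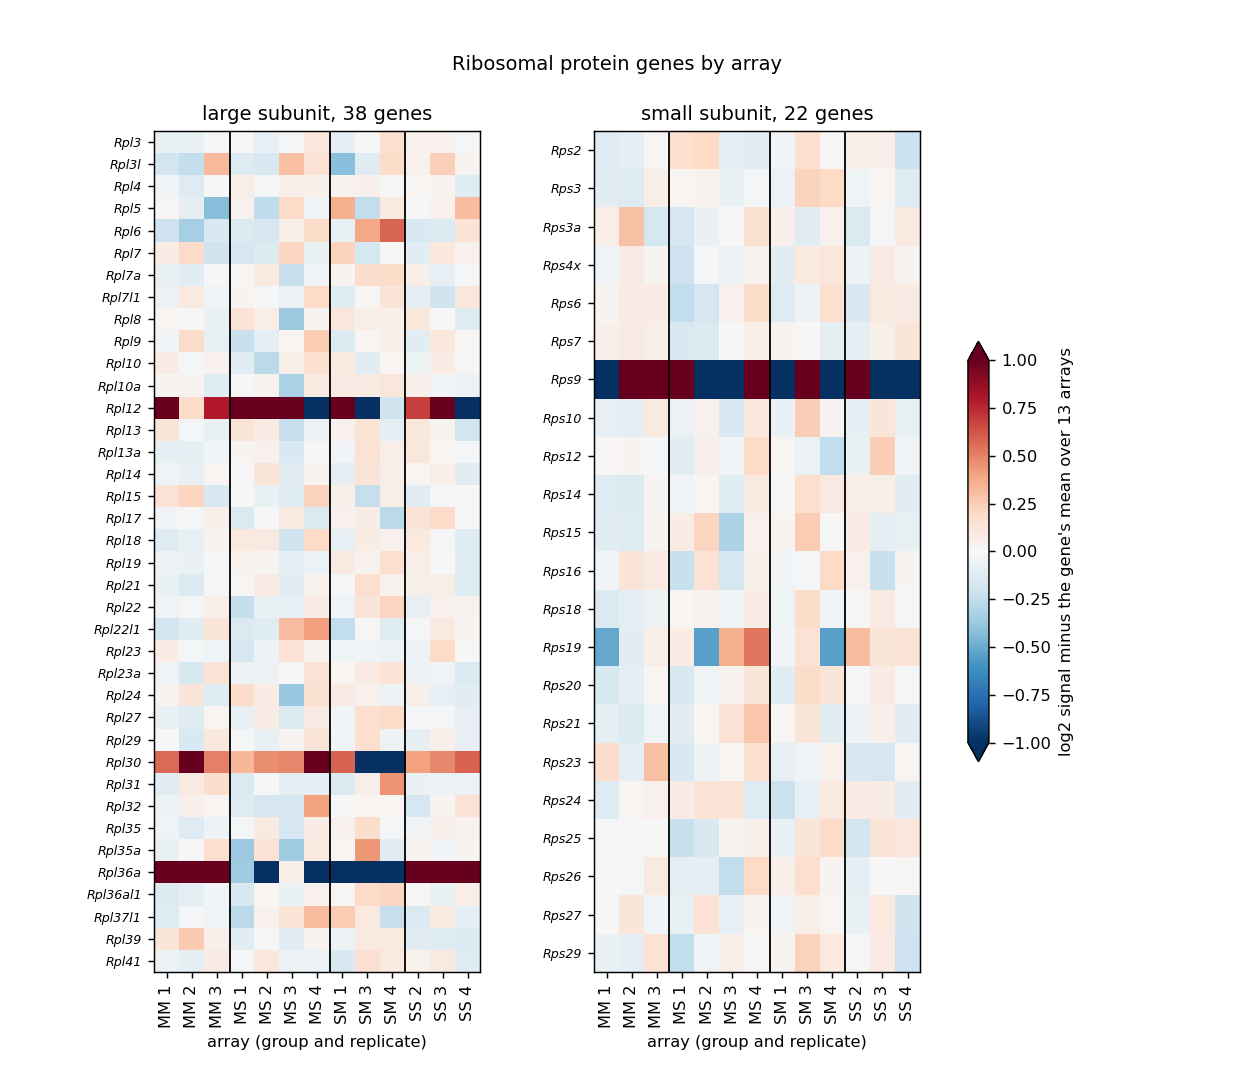
Log2 scaled signal of each tested ribosomal protein gene on each array, as the difference from its own mean over the 13 arrays, with the large subunit (38 genes) at the left and the small subunit (22 genes) at the right. Columns are arrays in the groups MM, MS, SM and SS, and colours saturate at 1 log2 unit. Most rows are pale, and the strong rows are Rps9 and Rpl30, which moved by array, and Rpl12 and Rpl36a, whose signals were under 13 units.

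A pair of bright genes did not vary evenly. Rps9, a small-subunit protein near the channel through which mRNA enters, had signals of 51.4, 2337 and 2422 units on the MM arrays 1, 2 and 3. On MS arrays 1 to 4 it had 4309, 74.1, 47.3 and 4277 units. On SM arrays 1, 3 and 4 it had 60.0, 2456 and 96.1 units, and on SS arrays 2, 3 and 4 it had 2398, 72.0 and 35.7 units. Every group thus held arrays at both a low and a high level. The 7 low arrays lay between 35.7 and 96.1 units, 4 arrays lay between 2337 and 2456 units, and MS arrays 1 and 4 lay at 4309 and 4277 units. Nothing was measured between 96.1 and 2337 units.

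A second probe for Rps9 divided the arrays in the same way. It gave 664.8 to 1043 units on the same 7 arrays, 5153 to 5803 units on the same 4 arrays, and 9123 and 9131 units on MS arrays 1 and 4. Over the 13 arrays its log2 signal had a correlation of 0.995 with that of the first probe, as a description of these arrays. Of 8211 probes that reached 100 units on some array, 3 had a correlation over 0.95 with the first Rps9 probe. These were the second probe and 2 probes without a gene name, ILMN_1365113 (0.996) and ILMN_1353766 (0.99), which were high on the same 6 arrays. The next highest correlation was 0.883. No difference between groups is printed for Rps9, since the levels divide each group. Rps9 is kept in the counts and small-subunit medians below and in the plot of log2 differences. The gene identifier attached to both probes was not matched in the current annotation, and the gene was picked out after its values were seen.

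Rpl30, a large-subunit protein that also takes part in the reading of selenocysteine codons, had 3861, 165 and 253 units on SM arrays 1, 3 and 4, against 3399, 3589.9 and 3866 units on SS arrays 2, 3 and 4. The MM arrays 1, 2 and 3 gave 3809.8, 7105 and 3635 units, and MS arrays 1 to 4 gave 3227, 3546, 3588 and 6823 units. SM arrays 3 and 4 were thus more than 10 times below every other array, MM array 2 and MS array 4 were the highest, and the other 9 arrays lay between 3227 and 3866 units. SM array 1 lay inside the range of the SS arrays. A gap of more than 2 log2 units between 2 levels of at least 2 arrays each was found for 24 of the 8211 probes (0.292%), among them both Rps9 probes and the Rpl30 probe. The arrays were not the same for the 2 genes: SM array 3 was low for Rpl30 and high for Rps9, while SM array 4 was low for both.

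**Figure D2:**
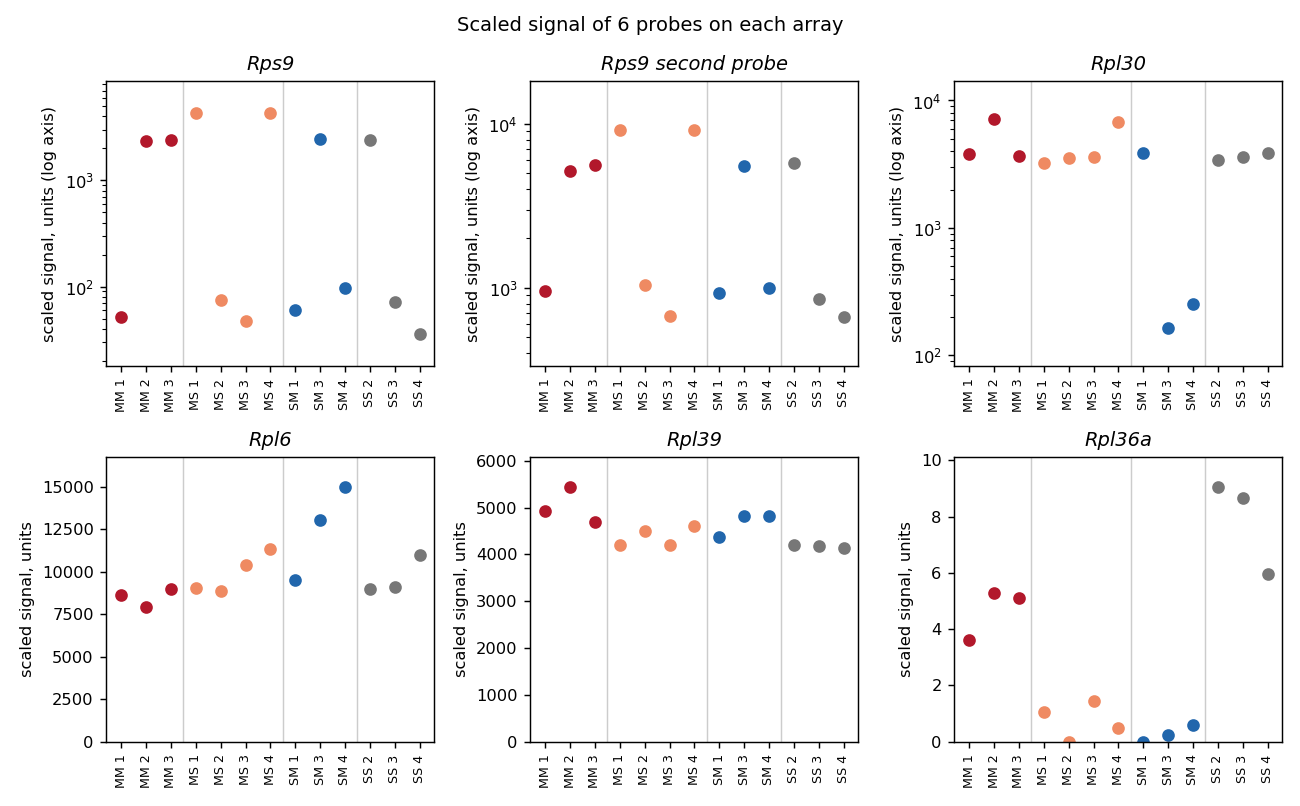
Scaled signal in units on each of the 13 arrays for the 2 Rps9 probes and for Rpl30 (log axes), and for Rpl6, Rpl39 and Rpl36a (linear axes from 0), with groups in the order MM, MS, SM and SS. Both Rps9 probes were high on the same 6 arrays, Rpl30 was low on SM arrays 3 and 4, and Rpl36a stayed under 10 units on every array.

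METH pretreatment alone, the comparison of MS with SS, left the ribosomal protein mRNAs close to their levels in SS. The median log2 difference was -0.01 for the 38 large-subunit genes and -0.0024 for the 22 small-subunit genes, beside 0.02 over all 17140 tested probes. Of the 60 genes, 27 were higher in MS and 33 lower, beside 56.4% of all probes higher. Within 0.2 log2 units of no difference lay 57 genes, beside 11086 of the 17140 probes. Within groups all tested probes had a median SD of 0.27 log2 units, against 0.12 for those over 1000 units. Shares of all probes given here and below are thus not matched for brightness. A criterion of a 1.7-fold difference at an unadjusted p under 0.05 was met by 1 gene, Rpl36a, lower in MS, beside 1.13% of all tested probes in either direction and 0.572% lower. Without SS array 2, SS array 3 or MS array 2 no gene met it. The groups did not overlap for that gene alone, beside 2.92% of all probes. In limma's fit the 95% interval of the difference lay within 1.7-fold in either direction for 56 of the 60 genes, beside 63.3% of all probes, and the 4 others were Rpl12, Rpl30, Rpl36a and Rps9.

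Rpl36a, a large-subunit protein at the site from which tRNAs leave, had 1.07, 0, 1.43 and 0.49 units on MS arrays 1 to 4, against 9.04, 8.66 and 5.96 units on SS arrays 2, 3 and 4. The SM arrays 1, 3 and 4 gave 0, 0.23 and 0.60 units. All 7 arrays lay below the 3 SS arrays, at signals of under 10 units. The fitted log2 difference was -3.86 ± 1.44 between MS and SS (SE, limma adjusted p = 1) and -4.98 ± 1.54 between SM and SS (SE, limma adjusted p = 0.966). These sizes depend on how values near 0 are floored. With 16 units added to every signal the differences were -0.51 and -0.55, at an unadjusted p of 0.00013 and 0.00012 in limma. Both are under 1.7-fold, and no fold is given. In that setting the smallest adjusted p of any probe in limma was 0.246 for MS with SS and 0.036 for SM with SS. Only 1 probe, not that of Rpl36a, had an adjusted p under 0.05 in SM with SS. The related probe for Rpl36al1 was bright, with 5035 ± 319 units in MS and 5188 ± 230 units in SS (SD, n = 4 and 3).

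The METH challenge in saline-pretreated rats, SM against SS, came with slightly higher values for most ribosomal protein genes, and none of the higher genes met the criterion. The median log2 difference was 0.05 for the large and 0.07 for the small subunit, beside 0.01 over all tested probes, and 45 of the 60 genes were higher in SM (28 of 38 large, 17 of 22 small), beside 51.6% of all probes. The SD between arrays of a subunit's median was 0.04 for the large and 0.07 for the small subunit, about the size of the shifts. That SD is the spread of single arrays and not of a difference between group means, and the shifts were not tested. Among replicates 1 and 2 (SM 1 and SS 2) the medians were 0.01 and 0.01, and among replicates 3 and 4 they were 0.09 and 0.08. With each array left out in turn the medians ran between 0.023 and 0.070 for the large subunit, lowest without SS array 4, and between 0.015 and 0.11 for the small subunit, lowest without SM array 3. On the ratios as deposited, which moved the median of all probes to 0.066, they were 0.11 and 0.13. Over the genes of both subunits, SM array 3 was the highest of all 13 arrays for 15, SM array 4 for 12 and MS array 4 also for 12 of the 57 genes over 32 units on all arrays. Summed signals of 7 blood cell markers lay between 10977 and 13199 units in SM and between 20768 and 25081 units in SS. Most of each sum came from Hbb, which averaged 12150 units in SM and 22352 units in SS. Of the 6 tested markers 5 were lower in SM and 1 was higher. The part of blood cells in these differences was not tested.

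At the criterion 2 genes were called in SM against SS, Rpl30 and Rpl36a, both lower, beside 1.62% of all tested probes in either direction and 0.939% lower. For Rpl30 the log2 difference was -2.73 ± 0.89 (SE, 95% interval -4.68 to -0.78, limma adjusted p = 0.966), and SM array 1 did not share it. Without SM array 1 the difference was -4.14, without SM array 3 it was -1.87, and without SM array 4 it was -2.18. The groups did not overlap for 5 genes, beside 9.92% of all probes. These were Rpl10a, Rpl23a, Rpl39 and Rps26, higher in SM, and Rpl36a. Rpl23a, which lies at the mouth of the exit tunnel, had 21517, 22485 and 23398 units in SM, against 20517, 20560 and 19327 units in SS, a difference of 0.16 ± 0.11 (SE, 95% interval -0.07 to 0.39).

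Rpl6, a large-subunit protein that can bind Mdm2, had 9486, 13053 and 14961 units on SM arrays 1, 3 and 4, against 8995, 9090.5 and 10996 units in SS. SM arrays 3 and 4 were the highest 2 of all 13 arrays. The log2 difference was 0.35 ± 0.16 (SE, 95% interval -0.0064 to 0.70), with an overlap at SM array 1. Among small-subunit genes the smallest p in either direction belonged to Rps3, a protein of the mRNA entry channel, which averaged 10197 ± 1047 units in SM and 9029 ± 475 units in SS (SD, n = 3 each), a difference of 0.17 ± 0.10 (SE, 95% interval -0.05 to 0.40). Rps29 averaged 7458 ± 545 units in SM and 6669 ± 673 units in SS, and Rps12 averaged 2260.3 ± 206 units in SM and 2504 ± 306 units in SS (SD, n = 3 each), with intervals that include 0. No small-subunit gene had an unadjusted p under 0.05 in any of the 5 comparisons.

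**Figure D3:**
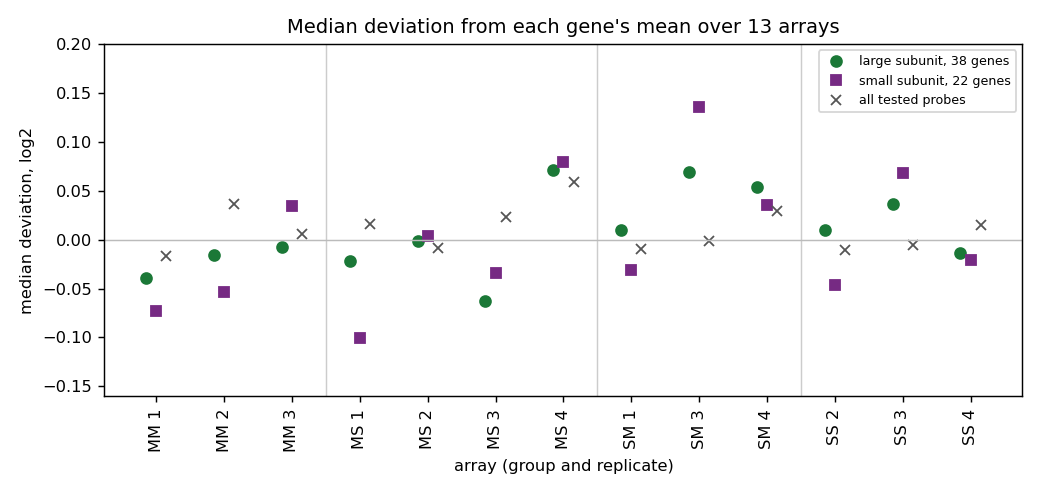
Median over the genes of each subunit, and over all 17140 tested probes, of the log2 deviation from each gene's mean over the 13 arrays, by array. All subunit medians lay between -0.10 and 0.14, the small subunit was highest on SM array 3 (0.14) and lowest on MS array 1 (-0.10), and the groups overlapped.

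In METH-pretreated rats the same challenge, MM against MS, gave medians of -0.02 for the large and 0.01 for the small subunit, beside -0.01 over all probes. On the ratios as deposited, without division by the array median, the median of all probes was 0.07 and those of the subunits 0.064 and 0.094. There the large subunit was slightly lower than all probes and the small subunit slightly higher. With quantile normalization the large-subunit median was 0.012, beside 0.0088 over all probes, so its side of all probes depends on the scaling. Of the 60 genes 29 were higher in MM and 31 lower, beside 47.3% of all probes higher. None met the criterion, beside 1.32% of all tested probes.

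Rpl39, a small protein that lines the tunnel through which the new chain leaves, was the only gene with an unadjusted p under 0.05 in this comparison, beside 4.39% of all probes. It had 4925, 5435 and 4696 units in MM, against 4202, 4498, 4194 and 4613 units in MS. The lowest MM array was above the highest MS array, and the log2 difference was 0.20 ± 0.09 (SE, 95% interval 0.0045 to 0.39, limma adjusted p = 0.999). Against SS, with 4203, 4176 and 4129 units, the MM arrays were also all higher, by 0.26 ± 0.09 (SE, 95% interval 0.06 to 0.47, limma adjusted p = 1). In fold terms these are 1.15 and 1.20, under the criterion. The SM arrays, with 4379, 4827 and 4824 units, lay above all SS arrays as well, by 0.16 ± 0.09 (SE, 95% interval -0.04 to 0.37), and the 2 challenge effects differed by 0.03 ± 0.13 (SE). The 2 comparisons of MM share the MM arrays.

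The groups did not overlap for 3 genes in MM against MS, beside 4.38% of all probes. These were Rpl39, Rpl36a (3.63, 5.28 and 5.12 units in MM, above every MS array) and Rps18, of the head of the small subunit. For Rpl36a the log2 difference was 3.11 ± 1.44 (SE, limma unadjusted p = 0.053), with a size that depends on the floor. Rpl36a met the criterion here in some of the other settings given below. Rps18 averaged 11909 ± 373 units in MM and 12948 ± 417 units in MS (SD, n = 3 and 4), with a log2 difference of -0.12 ± 0.09 (SE, 95% interval -0.31 to 0.07). Rps7 averaged 11247 ± 113 units in MM and 10346 ± 762.1 units in MS, and Rps21 averaged 8906 ± 299 units in MM and 10081 ± 1169 units in MS (SD, n = 3 and 4), and for neither did the 95% interval leave out 0.

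Rats that had METH at both stages were near the saline controls. In MM against SS the medians were -0.01 for both subunits, beside 0.01 over all probes. On the ratios as deposited the subunit medians were 0.054 and 0.057, beside 0.078 over all probes. Of the 60 genes 26 were higher in MM and 34 lower, beside 52.7% of all probes higher. None met the criterion, beside 1.61% of all tested probes. Within 0.2 log2 units of no difference lay 52 genes, beside 10053 of the 17140 probes. The blood marker sums, mostly Hbb, were lower in MM here too, at 10909 to 20082 units in MM against 20768 to 25081 units in SS. The groups did not overlap for 6 genes, beside 10.1% of all probes, with Rpl39 higher in MM and Rpl13a, Rpl35, Rpl36a, Rps18 and Rps19 lower. Rpl13a, which in humans can leave the ribosome to silence inflammatory mRNAs, had 3185, 3190.3 and 3338 units in MM, against 3682, 3437 and 3356 units in SS. That difference was -0.11 ± 0.09 (SE, 95% interval -0.31 to 0.09). Rps23, of the decoding centre, averaged 6937 ± 940 units in MM and 5876 ± 429 units in SS (SD, n = 3 each), with a difference of 0.23 ± 0.12 (SE, 95% interval -0.03 to 0.50).

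**Figure D4:**
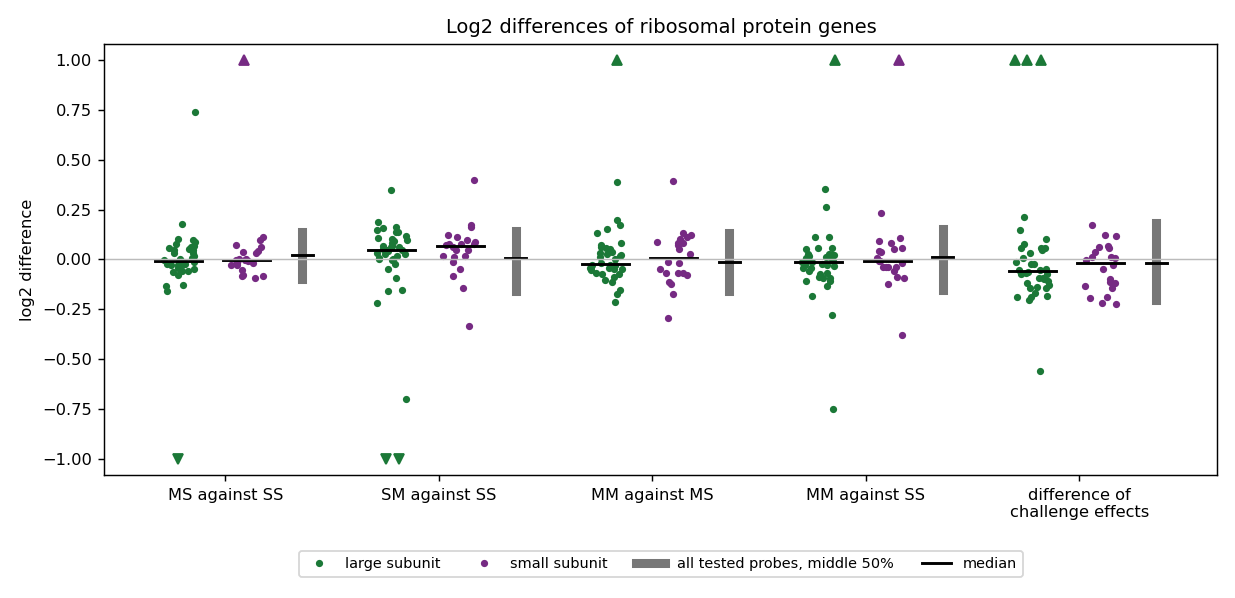
Log2 difference of each tested ribosomal protein gene in each comparison, with the large subunit in green and the small subunit in purple, black lines for the medians, and a grey bar for the middle 50% of all 17140 tested probes. Triangles mark genes past 1 log2 unit in either direction, Rps9 among them in MS against SS and in MM against SS, though its levels divide each group. The medians of both subunits lay between -0.06 and 0.07 in every comparison.

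Whether pretreatment altered the response to the challenge was tested as the difference between the effect in METH-pretreated rats (MM against MS) and that in saline-pretreated rats (SM against SS). The medians were -0.06 for the large and -0.02 for the small subunit, beside -0.02 over all tested probes, and on the ratios as deposited that of the small subunit was 0.01 beside 0.0079 over all probes. The criterion was met by 2 genes, both higher, beside 1.66% of all probes in either direction and 0.98% higher. Rpl36a differed by 8.09 ± 2.11 (SE, limma adjusted p = 1) and Rpl30 by 2.90 ± 1.22 (SE, 95% interval 0.24 to 5.57, limma adjusted p = 1). The first rests on signals under 10 units, where adding 16 units gives 0.86, still past 1.7-fold. The second is 4.32 without SM array 1, 2.04 without SM array 3 and 2.35 without SM array 4. Rpl30 no longer met the criterion for the difference when any 1 of 9 arrays was left out (SS 2, 3 or 4, SM 3 or 4, MS 1, 2 or 3, or MM 2) or without the filter on low values. Rpl6 had a difference of -0.56 ± 0.22 (SE, 95% interval -1.04 to -0.07, limma adjusted p = 1), below 1.7-fold. Its MM arrays gave 8649.5, 7918 and 8999.9 units and its MS arrays 9037, 8886, 10393 and 11310 units, so that the difference was -0.21 ± 0.15 (SE) between MM and MS and 0.35 ± 0.16 (SE) between SM and SS.

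In no comparison did a ribosomal protein gene reach an adjusted p under 0.05 in limma, against 1 of the 17140 probes (0.00583%) for MS with SS, 1 (0.00583%) for MM with MS and 0 for the other 3. At an unadjusted p under 0.05 the 60 genes held 1 for MS with SS (2.62% of all probes), 2 for SM with SS (4.36% of all), 1 for MM with MS (4.39% of all), 1 for MM with SS (4.17% of all) and 3 for the difference (2.86% of all). The 95% interval lay within 1.7-fold for 55 of the 60 genes for SM with SS (59.2% of all probes), for 55 for MM with MS (61.3% of all), for 55 for MM with SS (58.9% of all) and for 54 for the difference (46.2% of all). The exceptions were Rpl12, Rpl30, Rpl36a, Rps9 and Rps19, and for the difference also Rpl6. With 3 or 4 arrays a group, the median SE of a difference was 0.11 to 0.12 log2 units, and 0.16 for the difference of challenge effects.

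Paralogs and members with other roles were mostly even too, while Rpl36a and Rpl39 are described above. Rps19, under 32 units on every array, differed by -0.33 ± 0.27 in SM against SS and by -0.38 ± 0.27 in MM against SS (SE). Both 95% intervals include 0 and reach past 1.7-fold. Rpl22 and its paralog Rpl22l1, which in mouse is raised when Rpl22 is lost, averaged 5793 ± 491.5 and 573 ± 50.3 units in SM, against 5374 ± 252 and 635 ± 24.7 units in SS (SD, n = 3 each). Over the 5 comparisons the log2 differences ran between -0.08 and 0.11 for Rpl22 and between -0.17 and 0.08 for Rpl22l1, and every 95% interval included 0. Rpl3l, the paralog of Rpl3 known from heart and skeletal muscle, had between 119 and 199 units over the arrays, and its differences ran between -0.22 and 0.15. Rpl3 itself averaged 14693 ± 318 units in MM, 15245 ± 820.4 in MS, 15493 ± 1391 in SM and 15450.0 ± 349 in SS (SD). Rpl7 and Rpl7l1 stayed within 0.11 log2 units of no difference in every comparison. Rps6, the target of the S6 kinases, averaged 7796 ± 164 units in MM, 7298 ± 1001 in MS, 7482 ± 795 in SM and 7542 ± 716 in SS (SD). Its differences ran between -0.05 and 0.12. Rpl10, which joins the large subunit late in its assembly, averaged 9906 ± 299.7 units in MM, 9481 ± 1222 in MS, 9734 ± 679.9 in SM and 9752 ± 428 in SS (SD), with differences between -0.05 and 0.08. Rpl5 averaged 109 ± 16.7 units in MM and 132 ± 16.1 units in SS (SD, n = 3 each), with the groups overlapping, a difference of -0.28 ± 0.18 (SE, 95% interval -0.67 to 0.11). Rps19bp1, the gene that the symbol took in, had differences between -0.26 and 0.15, none past the threshold.

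The members varied together more often than other bright probes. After the group means were removed, the median correlation between pairs of the 50 genes over 1000 units was 0.25 over the 13 arrays, and 69.3% of the 1225 pairs were above 0. For all 2424 tested probes that bright the median was 0.10 and 58.3% of pairs were above 0. Within the small subunit the median was 0.37 (19 genes), within the large subunit 0.20 (31 genes), and between the subunits 0.26. These correlations share arrays and scaling and are given as a description.

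A few ribosomal proteins have symbols that fall outside the rule. Rplp0, Rplp1, Rplp2, Rpsa and Rack1, among 8 such genes listed, had a median log2 difference of 0.10 in SM against SS with 5 of 5 higher in SM, and of -0.07 in MM against MS with 5 of 5 lower in MM. None passed the criterion or an unadjusted p of 0.05 in any comparison. Rplp1, of the stalk of the large subunit, averaged 11889 ± 305 units in SM and 10794 ± 469 units in SS (SD, n = 3 each), with a log2 difference of 0.14.

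Other genes of the translation machinery were read beside the same share of all probes at the criterion, 1.13 to 1.66% by comparison. Of 58 tested genes for mitochondrial ribosomal proteins, none met the criterion in any of the 5 comparisons, and Mrps26 (0.30 ± 0.13, SM against SS) and Mrpl17 (0.32 ± 0.12, MM against SS) had an unadjusted p under 0.05. The median of that list was 0.06 in SM against SS, with 46 higher and 12 lower, beside 51.6% of all probes higher. Of 31 translation initiation factors, Eif2a alone met the criterion, higher in MS with a mean of 4.22 units against 0 on all SS arrays (limma adjusted p = 1). Eif1ad had 199 ± 6.91 units in MS against 158 ± 33.0 units in SS and 136 ± 7.79 units in MM (SD), each at an unadjusted p under 0.05. Its log2 difference in MM against MS was -0.55 ± 0.16 (SE), below 1.7-fold. None of 11 elongation factors reached an unadjusted p of 0.05 in any comparison. Among 34 genes of ribosome biogenesis none met the criterion, and nucleolin (Ncl), which acts in the first steps of rRNA processing, averaged 2238 ± 110 units in MM, against 2635 ± 200.5 units in MS and 2646 ± 143 units in SS (SD), each at an unadjusted p under 0.05. Gnl3, a nucleolar GTPase, went the other way, with 183 ± 56.9 units in MM against 126 ± 3.27 units in SS (SD, n = 3 each), also at an unadjusted p under 0.05. Bop1 (0.26 ± 0.11) and Taf1a (-0.52 ± 0.24) in MS against SS and Ebna1bp2 (0.27 ± 0.12) in SM against SS were the remaining biogenesis genes at that level (log2 difference ± SE). Of 12 genes of mTOR and S6 kinase signalling, Rps6kb2, an S6 kinase, differed by -0.30 ± 0.14 (SE) in MM against MS at an unadjusted p under 0.05, and none met the criterion.

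Markers of some other cells moved with the groups. No marker of dopamine neurons, GABA neurons, neurons in general, astrocytes, oligodendrocytes, microglia or endothelium met the criterion in any comparison. Of 8 tested dopamine neuron markers 6 were higher and 2 lower in SM against SS (median 0.33). The summed blood cell markers, mostly Hbb, ran between 14633 and 19768 units in MS, so that the SS arrays were above those of all other groups. Of the 6 tested markers 3 met the criterion lower in SM against SS, 3 in MM against SS and 1 in MS against SS, while S100a9 was at the limit on all arrays. Of 11 markers of meninges and choroid plexus 10 were lower in SM against SS (median -0.24), with 1 meeting the criterion, and their sums overlapped between all groups. Summed signals of 6 oligodendrocyte markers lay between 28576 and 29560 units in MM, against 30270 to 35917 units in SS, without overlap. Of these 6 markers 2 were higher and 4 lower both in SM against SS (median -0.16) and in MM against SS (median -0.11). In MM against MS 1 was higher and 5 were lower (median -0.095). At an unadjusted p under 0.05, Cnp differed by -0.29 ± 0.10 in MM against MS and by -0.23 ± 0.10 in MM against SS, and Mbp by -0.44 ± 0.17 in SM against SS (log2 difference ± SE). Of 6 markers of serotonin neurons all were higher in MM against MS (median 0.80), with Tph2 meeting the criterion, and their summed signal ran between 5450 and 6567 units in MM and between 2183 and 5315 units in MS. The part of these cells in the differences of the ribosomal protein genes was not tested.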

How the data were processed

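The authors extracted hybridization signals with BeadStudio and normalized them in GeneSpring (global normalization). The deposited table holds ratios: each background-subtracted signal, scaled on its array, was divided by the median of its probe over these arrays or by 10 units where that median was lower, with a lower limit of 0.01, at which 28.2% of values stand. Signals in units were recovered from the step of the dim ratios on each array, and all 28450 dim values examined were whole multiples of it within 0.02 steps. Ratios were divided by the array median (0.770 to 0.952), raised to a floor (their 25th percentile, 0.0120) and taken as log2. The 17140 probes that passed the floor on 3 or more arrays were fitted with limma 3.58.1 (R 4.3.3) with a mean per group and a trended prior along the mean log2 ratio, and p-values were adjusted by Benjamini and Hochberg over all of them. Along that trend the SE of Rps9, whose mean ratio is far from 1, is much above its spread and is not printed. The printed SE of Rpl36a, with a residual SD of 1.14 log2 units, is also raised by the trend. Without the trend the unadjusted p of Rpl36a in limma for MM with MS was 0.0035, against 0.053 with it. Values are limited by the number of arrays. The criterion of 1.7-fold at an unadjusted p under 0.05 is that of the authors' methods. Only the limma fit was run on simulated log2 values, with changes planted in probes of low spread. The recovery of signals, the scaling, the floor and the filter were not part of that simulation.

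The probe names are those of the platform annotation. The genes named are those that met the criterion, the 2 members with the smallest p per subunit, direction and comparison, those with values at the limit, paralogs and members with roles outside the ribosome. Rps9, Rpl10a, Rpl35, Rpl35a and Rps26 fall outside this rule, and the choice to name them followed a look at their values. The members, gene lists and tests were chosen with earlier results of these data known. Alternatives were the scaling, floor, filter, variance prior, probe, replicate number, replicate set and each array left out. No value column was left unused (0).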

Additional observations from a re-analysis of the deposited data

Results flagged for a closer look

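Among the 4 MS arrays, the only group of the size needed for a test of a single outlying array, 2 of the 30 named members had an array far from the other 3. Rpl30 was at 6823 units on MS array 4, with the 3 other arrays between 3227 and 3588 units. Rpl12 was at 0 units on MS array 4, with the others between 5.3 and 10.0 units. The gap of Rpl12 passes only on the floored log2 scale, where it is 0.859 of the range and past Dixon's critical value for 4 arrays, and is 0.53 of the range in units, which is below that value, while that of Rpl30 is 0.90 of the range in units. Chance gives such a gap in about 1 of 20 groups, and 30 members were looked at.

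The challenge effect differed between METH-pretreated and saline-pretreated rats for Rpl30, by 2.90 log2 units, and for Rpl36a, by 8.09 log2 units, each at an unadjusted p under 0.05 and with an adjusted p = 1 in limma. For Rpl30 the difference comes with the low values of SM arrays 3 and 4 (165 and 253 units) and no longer has an unadjusted p under 0.05 when any 1 of 9 of the 13 arrays is left out, and for Rpl36a with signals under 10 units on all arrays.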

How the results depend on the processing

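Of 400 values of counts and medians computed under other settings, 361 stayed near the main value (a count within 1.5 times, a median within the SD between arrays of that subunit's median, 0.04 or 0.07), some of them medians near 0 that changed sign. None of the called differences turned sign. Without a filter the genes meeting the criterion numbered 0 for MS with SS, 1 for SM with SS and 1 for the difference of challenge effects, and with probes above the limit on all arrays, which leaves Rpl36a out, the counts were also 0, 1 and 1. With 16 units added they were 0 for MS with SS and 1 for SM with SS. In MM against MS the count was 1 (Rpl36a) with the floor doubled, without the variance trend and with the replicate set as a covariate. Without Rps9 and Rpl30, chosen after seeing the data, it was 1 in SM against SS and 1 for the difference. On the ratios as deposited the medians of the large subunit were 0.11 for SM with SS, 0.064 for MM with MS and 0.054 for MM with SS, and that of the small subunit was 0.094 in MM against MS. Within replicates 1 and 2 the large-subunit median was -0.052 for MM with SS and -0.016 for the difference, and within replicates 3 and 4 it was 0.093 for SM with SS, 0.027 for MM with MS and -0.10 for the difference, also chosen after seeing the data.

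Leaving out 1 array at a time, the counts ran between 0 and 1 for MS with SS (0 without SS 2, SS 3 or MS 2), 2 and 2 for SM with SS, 0 and 1 for MM with MS (1 without SM 1, SM 4 or MS 3), 0 and 0 for MM with SS, and 1 and 2 for the difference, where Rpl30 lost the call when any 1 of 9 arrays was left out. The large-subunit medians ran between -0.033 and 0.034 for MS with SS, 0.02 and 0.07 for SM with SS, -0.04 and 0.01 for MM with MS, -0.059 and -0.0025 for MM with SS, and -0.09 and -0.04 for the difference. Those of the small subunit ran between -0.037 and 0.025, 0.015 and 0.11, -0.047 and 0.038, -0.038 and 0.039, and -0.074 and 0.0041 in the same order. With quantile normalization the large-subunit median for MM with MS was 0.012, and with the array median over probes above the limit on all arrays it was 0.0046. The replicate number is not known to mark a shared animal or day. Of 15 same-numbered pairs of arrays 4 had residuals with a correlation over 0.1 (lowest -0.02, highest 0.16), though 12 of 13 arrays correlated best with 1 of their own number. With the replicate block the counts were 1, 2, 0, 0 and 2, as without it, while the medians for MS with SS were 0.0095 (large) and 0.024 (small) and the small-subunit median for MM with SS was 0.042.

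Over all probes the criterion was met by 193, 277, 227, 276 and 285 probes for MS with SS, SM with SS, MM with MS, MM with SS and the difference. With probes above the limit on all arrays these counts were 81, 149, 107, 138 and 170, with 16 units added 17, 41, 46, 54 and 86, and without SM array 1 the count for SM with SS was 418. The signal limits what can be said of Rpl12, Rpl36a and Rps19, which stayed under 32 units on every array.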
